A study of Mus musculus with 13 samples.

Results

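The splicing factor genes described here are the 65 protein-coding mouse genes whose symbols begin with Srsf, Snrp, Sf3a, Sf3b, Hnrnp or Prpf, out of 22442 genes listed in the count files. They were chosen by name, with earlier results of these data known. They fall into 6 role groups: 11 SR proteins, 8 Sm core proteins, 4 other proteins of the U1 and U2 small nuclear ribonucleoproteins (snRNPs), 9 SF3A and SF3B subunits, 20 heterogeneous nuclear ribonucleoproteins (hnRNPs) and 13 PRPF proteins. The study asked how loss of Nat10, the acetyltransferase that places N4-acetylcytidine (ac4C) on RNA, affects translation in mouse oocytes. Ribo-seq counted ribosome footprints on coding sequences (CDS) in 3 WT and 3 Nat10-ZcKO libraries of germinal vesicle (GV) oocytes, which are arrested in prophase of the first meiotic division, and in 2 WT and 3 Nat10-ZcKO libraries of oocytes at metaphase of the second division (MII). acRIP-seq, which pulls down RNA fragments with an antibody, was made from WT GV oocytes with 1 anti-ac4C (IP) and 1 anti-IgG library. Nat10-ZcKO animals carry a floxed Nat10 allele recombined by Cre under the Zp3 promoter, which is active in oocytes of growing follicles, so deletion occurs in the oocyte and the surrounding somatic cells keep Nat10. The series' design text also mentions tamoxifen, and which libraries this touches is not given in the sources used here. Each library was made from pooled oocytes, RNase I was used for the footprints, ages are not given in the labels, and the labels do not tie libraries to animals. The study's methods describe GV oocytes from young females given the gonadotropin PMSG. Superovulated oocytes came from oviducts after PMSG and then hCG, another gonadotropin. These libraries are not named there, so hormone treatment may differ together with stage. The study's methods speak in general of biological triplicates, without naming these libraries (WT MII has 2, acRIP-seq 1 of each kind), so p-values are taken to measure only the spread between these libraries, which may be technical.

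Splicing is carried out by the spliceosome, which assembles on each intron from snRNPs. The U1 snRNP recognises the 5′ splice site, the U2 snRNP with SF3A and SF3B binds the branch site, and PRPF proteins belong mostly to the U4/U6.U5 particle and the catalytic core. Sm proteins form the ring around most spliceosomal snRNAs, while SR proteins and hnRNPs bind exons and introns and influence which splice sites are used. Fully grown oocytes have stopped transcribing, and during maturation protein synthesis from stored mRNA is controlled by polyadenylation and by RNA-binding proteins.

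Depth was low, with 4815 to 279464 counts per Ribo-seq library, and 3 libraries stood apart before any splicing gene was considered. WT MII replicate 2 held 4815 counts on 523 genes. In Nat10-ZcKO GV replicate 1 a list of 12 oocyte markers made up 0.0142% of counts with 3 of the 12 detected, and in Nat10-ZcKO GV replicate 2 it made up 1.51%, against 5.69% to 11.1% in the other 4 GV libraries. In the 4 deeper MII libraries it made up 1.12% to 1.33%, with all 12 detected in each, so low values set a library apart only among GV libraries. A list of 12 adipocyte markers made up 1.51% and 0.304% of these 2 libraries, with 12 and 10 markers detected, and 0.0150% to 0.0270% of the 8 libraries that did not stand apart. Granulosa and cumulus markers ranged from 0.262% to 0.651% in those 8, and were 1.24% in Nat10-ZcKO GV replicate 1, 0.447% in Nat10-ZcKO GV replicate 2 and 0 in WT MII replicate 2. Nat10 itself had 8, 11 and 3 counts in WT GV, 4, 1 and 5 in Nat10-ZcKO GV, 6, 3 and 2 in Nat10-ZcKO MII, and 1 and 5 in WT MII, so its counts did not separate the genotypes. In bulk libraries fewer cells of a type and less RNA per cell cannot be told apart, and footprint counts do not separate more mRNA from more ribosomes per mRNA. Results are therefore given over all 11 libraries and over the 8.

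The 65 genes together took a larger share of footprints at MII than at GV once the 3 libraries were left out. In WT GV the share was 0.694%, 0.685% and 0.700% of counts, with exact (Clopper-Pearson) 95% intervals of 0.652 to 0.738, 0.654 to 0.716 and 0.648 to 0.755. In Nat10-ZcKO GV it was 1.90% (1.77 to 2.04), 1.07% (0.986 to 1.17) and 0.559% (0.532 to 0.587). The first and second of these are the libraries with few oocyte markers, and they held the highest and the third highest share of all 11. The part of non-oocyte RNA in these values was not tested. In WT MII the share was 0.942% (0.891 to 0.995) and 0.706% (0.489 to 0.985). In Nat10-ZcKO MII it was 1.14% (1.10 to 1.19), 0.915% (0.867 to 0.965) and 0.896% (0.850 to 0.944). These intervals cover counting error only, and amplified reads without molecular identifiers are not independent molecules.

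Group means were 0.693% ± 0.00778 (SD, n = 3) in WT GV, 1.18% ± 0.678 (n = 3) in Nat10-ZcKO GV, 0.824% ± 0.167 (n = 2) in WT MII and 0.984% ± 0.137 (n = 3) in Nat10-ZcKO MII. The spread of the Nat10-ZcKO GV libraries covered every other group. Over the 8 libraries the share was 0.659% ± 0.0672 at GV and 0.974% ± 0.114 at MII (n = 4 each), a ratio of 1.48, and no MII library fell as low as a GV library. Among the same libraries the oocyte markers went the other way, from 5.69% to 11.1% at GV to 1.12% to 1.33% at MII, and the part of that fall in the members' share of a fixed total was not tested. The ratio was 1.47 without Hnrnpa2b1, the gene with the most footprints. A separate list of 78 other spliceosome genes made up 0.718% to 0.830% of GV libraries and 0.714% to 0.952% of MII libraries among the same 8, with means of 0.769% and 0.813% and overlapping stages.

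**Figure D1:**
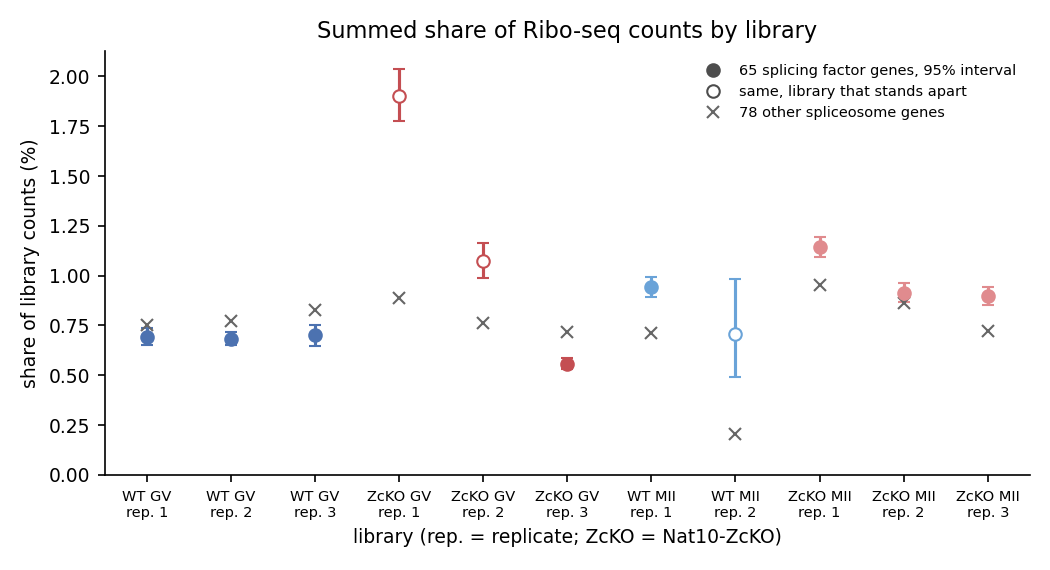
Summed share of the 65 splicing factor genes in each of the 11 Ribo-seq libraries, in percent of CDS counts, with exact 95% intervals for counting error. The 2 Nat10-ZcKO GV libraries with few oocyte markers sit at 1.90% and 1.07%, the other 4 GV libraries lie between 0.559% and 0.700%, and the 4 deeper MII libraries lie between 0.896% and 1.14%.

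The stage difference was not spread evenly over the roles. Over the 8 libraries, hnRNPs went from 0.351% ± 0.0455 at GV to 0.538% ± 0.0761 at MII, a ratio of 1.53, and PRPF genes from 0.0767% ± 0.0104 to 0.118% ± 0.00716, a ratio of 1.54. Sm core genes had the highest ratio, 2.19, from 0.0442% ± 0.00618 at GV to 0.0966% ± 0.0357 at MII. Their lowest MII library held 0.0613% and their highest GV library 0.0509%. These 3 groups did not overlap between stages. SR proteins had a ratio of 1.36, SF3A and SF3B 1.12 and the U1 and U2 proteins 1.08, and in each of these the stages overlapped. In Nat10-ZcKO GV replicate 1 hnRNPs alone made up 1.31% of counts, more than all 65 genes did in the other libraries. In WT MII replicate 2 the whole share came from 33 counts on Srsf4 and 1 on Hnrnpl, with no count on the other 63 genes.

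**Figure D2:**
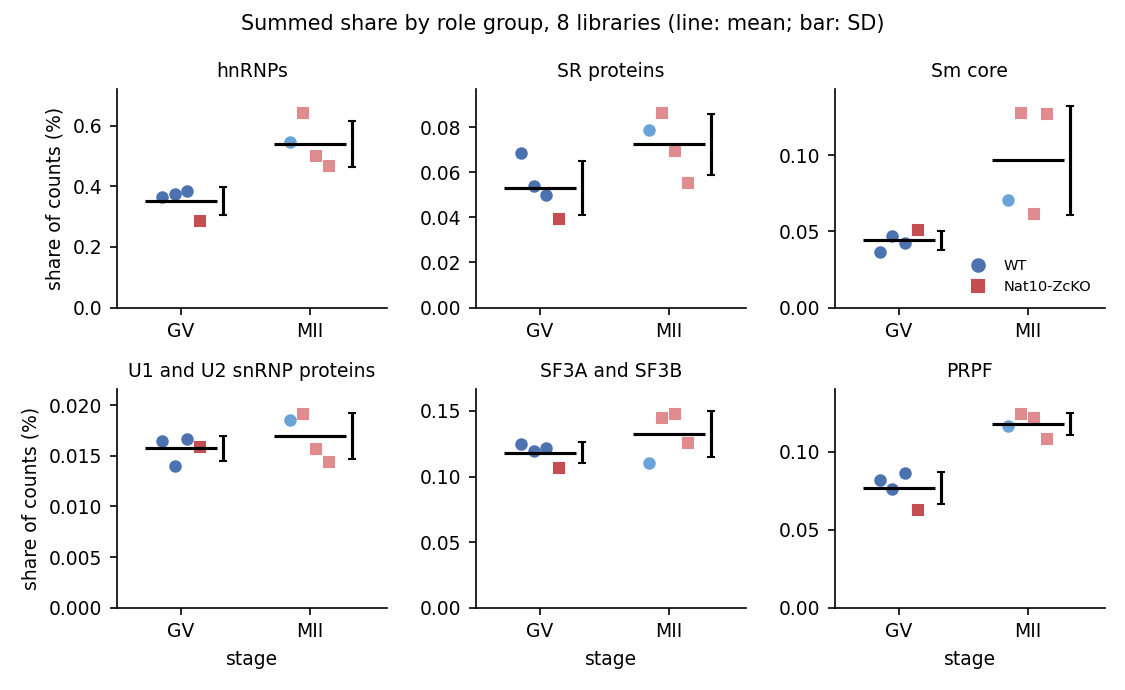
Share of CDS counts (percent) held by each of the 6 role groups in the 8 Ribo-seq libraries that did not stand apart, by stage, with circles for WT, squares for Nat10-ZcKO, a line at the mean and a bar of 1 SD either way (n = 4). Sm core, hnRNP and PRPF genes are higher in all 4 MII libraries than in all 4 GV libraries, whereas SF3A and SF3B, U1 and U2, and SR proteins overlap between stages.

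Footprints were concentrated on a few genes. Over the 8 libraries the 10 most counted genes held 55.2% of all counts on the 65, led by Hnrnpa2b1 with 9.37%, Hnrnpl with 6.85% and Hnrnpul2 with 6.63%. Of the 65 genes, 29 had at least 100 counts over the 11 libraries, 8 had fewer than 10, and 44 had a count in each of the 8 libraries. Per CDS length, in TPM (counts per base of CDS, scaled to the same total in each library) averaged over the 8 libraries, Snrpd3 was highest at 1410.2, followed by Hnrnpa2b1 at 941, Hnrnpa0 at 619.5, Sf3b5 at 478, Hnrnph1 at 441, Snrpd1 at 403, Hnrnpab at 401 and Hnrnpl at 377. Members of one complex differed in TPM, and their coding sequences are copied elsewhere in the genome to unlike degrees, as described below. Within the Sm ring, Snrpd3 stood at 1410.2 TPM, Snrpd1 at 403, Snrpf at 184, Snrpb at 83.6, Snrpe at 35.4, Snrpg at 7.52 and Snrpd2 at 4.73. Within SF3B, Sf3b5 stood at 478, Sf3b2 at 154, Sf3b1 at 108, Sf3b3 at 57.7, Sf3b6 at 37.1 and Sf3b4 at 2.72. Copied 28-base windows made up 100% of Snrpg, 91.1% of Snrpd2, 84.9% of Sf3b4, 83.5% of Snrpe and 83.1% of Snrpf. They made up 60.6% of Snrpd1, 12.9% of Snrpb and 0% of Snrpd3, Sf3b5, Sf3b3 and Sf3b6. The part of copying in these differences was not tested. Srsf12, an SR protein, had no count in any of the 13 libraries. Snrpc, the U1 C protein, had none in the 11 Ribo-seq libraries, where a count of 0 allows up to 10.7 to 623 CPM (counts scaled to a common library total) depending on the library, and had 17 IP and 1 IgG fragments. Of the 28-base windows of Snrpc, 65.7% are copied elsewhere.

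Many of these genes have processed pseudogenes, and a footprint of about 28 bases that occurs at more than one place in the genome cannot be assigned to one of them. Every 28-base window of each longest CDS was therefore looked up in both strands of the GRCm38 genome, the build named as mm10 in the submitters' processing notes. Of the members' windows, 15.9% had an exact copy elsewhere (20.9% for 20-base and 13.9% for 35-base windows), with a median of 4.26% per gene, 22 genes with none and 17 genes above 50%. For the 78 other spliceosome genes the summed share was 11.1% and the median 0.498%, with 13 genes above 50%. The most copied were Snrpg with 100% of its windows, Hnrnpf with 97.9% and Hnrnpa3 with 97.7%, followed by Srsf3 with 94.8% and Snrpd2 with 91.1%.

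Windows of these genes show how little separates a gene from its copy. The first 4 below are identical at the gene and at an annotated processed pseudogene. The next 4 differ from the copy at 1 base, shown in capitals, and the last 2 come from genes in which no window is copied. Each is given 5′ to 3′ on the strand of the gene.
Snrpg, identical to Gm8186: gtggagatggcaaccagtgggcaacaga
Hnrnpa3, identical to Gm11847: tgactccggccgtcgccgccgccgccgg
Srsf3, identical to Gm9761: gggtcgtcgtcctcgagatgattaccgc
Sf3b4, identical to Gm7935: atcccgtggtttcatccctgggttctgg
Hnrnpa3, C14T in Gm11847: accgccgcccggtCgcccccagcctgac
Srsf3, G1A in Gm9761: Gtgaaaagagaagtcggaatcgtgggcc
Hnrnpk, T14C in Gm7964: gtgcacaaccttaTgatcccaactttta
Hnrnpa2b1, G14A in Gm5778: tgaaaccacagaaGaaagtttgagaaac
Snrpd3, no copied window: aacaggtatatatacgtggcagcaagat
Srsf4, no copied window: acaagagccgcagtaagagtaaagacca
Positions are counted from 1 at the 5′ end of the window, with the base of the gene first and that of the pseudogene last. On GRCm38 the identical windows lie at chr6:86376575-86376602 (+) in Snrpg and chr17:26099059-26099086 (-) in Gm8186, at chr2:75659353-75659380 (+) in Hnrnpa3 and chr4:12232868-12232895 (+) in Gm11847, at chr17:29038571-29038598 (+) in Srsf3 and chr3:116561112-116561139 (-) in Gm9761, and at chr3:96174042-96174069 (+) in Sf3b4 and chr15:74080820-74080847 (-) in Gm7935. The windows with 1 difference lie at chr2:75659329-75659356 (+) in Hnrnpa3, chr17:29038531-29038558 (+) in Srsf3, chr13:58394742-58394769 (-) in Hnrnpk and chr6:51467221-51467248 (-) in Hnrnpa2b1. The windows without a copy lie at chr10:75532226-75532253 (+) in Snrpd3 and chr4:131900387-131900414 (+) in Srsf4. All are coding sequence.

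Genes with more than 50% of windows copied had fewer footprints than the other classes, both as a level and against the fragments of the IP library, which are counted over genes and not over the CDS alone. Below 10% the level did not fall with copying. The 22 genes with no copied window had a median of 59.2 TPM, and 1.82 footprint counts over the 8 libraries per IP fragment. The 15 genes with up to 10% copied had 115 TPM and 1.74, the 11 with 10% to 50% had 50.4 TPM and 1.36, and the 17 above 50% had 16.1 TPM and 0.838. There were exceptions on both sides. Srsf1, an SR protein with no copied window, stood at 8.77 TPM, whereas Snrpd1, Hnrnpc and Snrpf, with 60.6%, 62.5% and 83.1% of windows copied, stood at 403, 284 and 184 TPM. The acRIP-seq files list 0 fragments as aligned to several places. The study's methods mention uniquely mapped reads for RNA-seq only, how such reads were treated in these 2 assays is not given in the sources used here, and the part of these copies in the levels was not tested. Levels of the 17 genes above 50% are therefore uncertain, among them Snrpg, Snrpd2, Snrpe, Snrpf, Snrpc, Hnrnpf, Hnrnpa3, Srsf3, Srsf10, Hnrnpa1, Hnrnpk and Sf3b4.

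**Figure D3:**
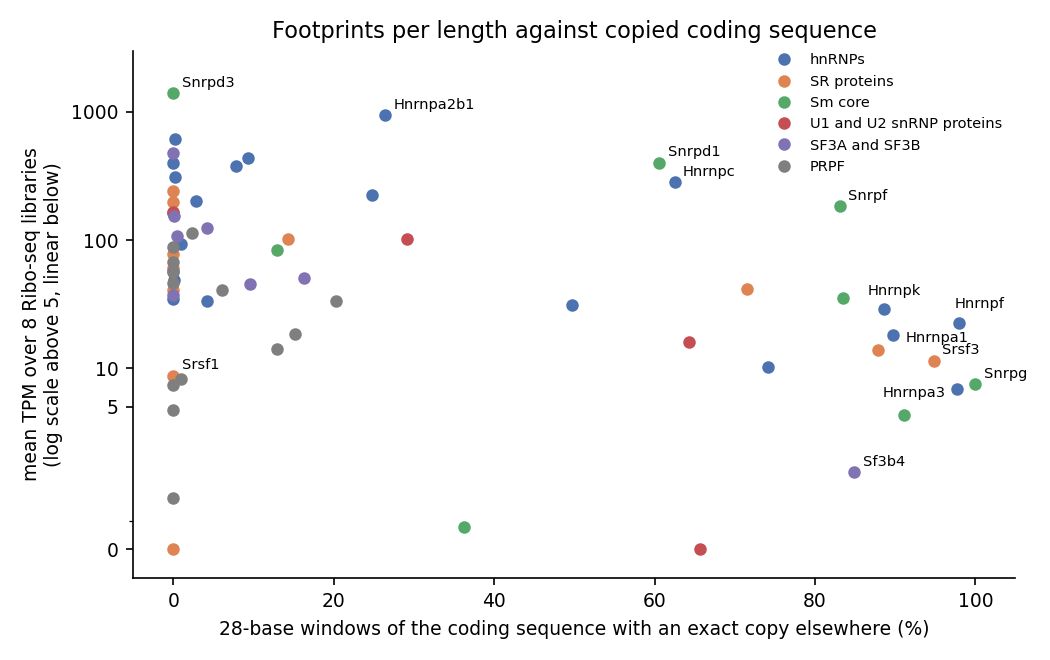
Mean TPM over the 8 Ribo-seq libraries (axis logarithmic above 5 and linear below) of each of the 65 genes against the percent of its 28-base CDS windows that occur elsewhere in the genome, coloured by role. Genes above 50% lie mostly low, with a median of 16.1 TPM, and Snrpd1, Hnrnpc and Snrpf are the exceptions.

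With all 11 libraries, no member passed the test in any of 6 comparisons (edgeR quasi-likelihood test, Benjamini-Hochberg adjusted p under 0.05 over all genes tested). Between genotypes at GV, 27 of the 65 genes passed the filter on low counts and 0 were called, where 0% of all tested genes were called. At MII 31 were tested and 0 called, against 0.191% of all genes. Between stages, 0 of 28 members were called in WT (0.293% of all genes), 0 of 32 in Nat10-ZcKO (16.5%), and 0 of 40 over both genotypes (21.2%). For the stage by genotype interaction 0 of 40 were called (0.802%). At an unadjusted p under 0.05 there were 2 members between genotypes at GV, 3 between stages in Nat10-ZcKO and 0 in the other 4 comparisons. DESeq2 called 0 except over both genotypes between stages, where it called 6 of 63, all lower at MII, against 11.6% of all genes lower in the same fit. The medians of the members' log2 fold changes were 0.82 between genotypes at GV (all tested genes -0.01), 0.42 at MII (0.37), 0.26 between stages in WT (-0.67), -0.49 in Nat10-ZcKO (-0.12) and -0.24 over both (-0.59). Without the 3 libraries the genotype medians of the members were -0.015 at GV (all genes -0.044), with 19 of 41 above 0, and 0.0095 at MII (0.19).

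One edgeR fit of the 4 groups over the 8 libraries called members between stages and none between genotypes. Over both genotypes 11 of 41 tested members rose from GV to MII and 2 fell, that is 26.8% and 4.88%, while 26.7% of all tested genes rose and 30.3% fell. The share that rose was thus close to that of all genes, and the share that fell was smaller. The members' median log2 fold change was 0.50 and that of all genes -0.14, with 30 of 41 members above 0. Within WT, 4 rose and 0 fell, where 15.3% of all genes rose and 15.6% fell, with medians of 0.53 and -0.22. Within Nat10-ZcKO, 8 rose and 1 fell, where 20.4% rose and 22.7% fell, with medians of 0.68 and 0.01. Between genotypes at GV and at MII 0 members were called, against 0.0496% of all genes in each, and for the interaction 0, against 0%, with 2, 0 and 3 members at an unadjusted p under 0.05 in these 3 comparisons. With 1 library left in Nat10-ZcKO GV and 1 in WT MII, that lone library is assumed to vary like the other groups.

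With single libraries of the 8 left out, calls of members and of all genes alike were fewest without Nat10-ZcKO GV replicate 3. That fit no longer compared stages in both genotypes. Without WT MII replicate 1, the only WT MII library among the 8, the additive stage term below rests on Nat10-ZcKO alone. Without Nat10-ZcKO GV replicate 3, the only Nat10-ZcKO GV library among the 8, it rests on WT alone, with a single MII library. A fit with genotype and stage as additive terms gave 10 of 41 members higher and 2 lower at MII over the 8 libraries. Over all tested genes it called 1027 higher and 1187 lower of 4029. Without that library it gave 4 of 41 members higher and 0 lower, and 677 genes higher and 523 lower of 3854. Those 4 members included Hnrnpa0, Hnrnph1 and Snrpd1, whereas Hnrnpa2b1, Hnrnpc, Hnrnpdl, Prpf6, Sf3a1, Sf3b1, Sf3b2, Sf3b3 and Srsf4 were not called. Leaving out any of the other 7 libraries in turn left 9 to 15 members called, with 9 without WT MII replicate 1. Over all genes these fits called 819 to 1047 higher and 937 to 1219 lower, of 3820 to 4058 tested. With DESeq2 8 of 63 members were higher and 0 lower, against 812 and 762 of 13058 genes. With DESeq2 size factors in edgeR 12 of 41 were higher and 2 lower, against 1106 and 1181 of 4029 genes. With library size alone 12 were higher and 1 lower, against 1111 and 1079 of 4029 genes.

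Another reading of the same 8 libraries counts separation in CPM. Of the 41 tested members 10 were higher in all 4 MII libraries than in every GV library and 1 was lower, against 25.1% and 25.9% of all tested genes. Within genotypes, MII lay above GV without overlap in WT and again in Nat10-ZcKO for 15 of the 41, and below in both for 2, Sf3b3 and Snrpa1, where 31.1% of all genes lay above and 31.6% below in both. In 4 members the genotypes went opposite ways, Hnrnpm, Hnrnpr, Hnrnpul1 and Srsf7. WT and Nat10-ZcKO share no library here, but each has a stage with a single library.

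By role, 5 of the 15 tested hnRNPs (33.3%) rose over the 8 libraries and 0 fell, against 26.7% and 30.3% of all tested genes. Hnrnpa0, an RNA-binding protein of the hnRNP A/B family (chr13:58125879-58128556, - strand, GRCm38), had 247, 354 and 249.6 CPM in WT GV, 2668, 909 and 141 in Nat10-ZcKO GV, 638 and 0 in WT MII, with 867, 484 and 519.7 in Nat10-ZcKO MII. Its 2 highest values were in the Nat10-ZcKO GV libraries with few oocyte markers, and among the 8 others every MII library was above every GV library. The log2 fold change from GV to MII was -0.13 ± 0.98 (SE; adjusted p = 0.926, edgeR) over all 11 libraries and 1.51 ± 0.31 (adjusted p = 0.00019) over the 8. Between genotypes at GV Hnrnpa0 had an unadjusted p of 0.0422, with overlapping groups.

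Hnrnph1, which binds runs of G and acts on alternative exons (chr11:50376990-50386528, + strand), had 330.0, 318 and 385 CPM in WT GV, 803, 193 and 231 in Nat10-ZcKO GV, 727 and 0 in WT MII, with 750.1, 627 and 614 in Nat10-ZcKO MII. Over the 8 libraries it averaged 316 ± 63.7 CPM at GV and 679 ± 69.1 at MII without overlap. Its log2 fold change was 1.18 ± 0.28 (adjusted p = 0.000975, edgeR), against 0.70 ± 0.98 (adjusted p = 0.601) over all 11. Hnrnpdl, a relative of Hnrnpd (chr5:100033577-100039664, - strand), had 117, 197 and 249.6 CPM in WT GV, 283, 309 and 86.6 in Nat10-ZcKO GV, 319 and 0 in WT MII, with 319, 279 and 344 in Nat10-ZcKO MII. Without the 3 libraries the stages did not overlap, and the log2 fold change was 1.20 ± 0.34 (adjusted p = 0.00419, edgeR).

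Hnrnpa2b1, an abundant A/B type hnRNP (chr6:51460932-51469894, - strand), had 694, 626 and 593 CPM in WT GV, 2479, 832 and 491 in Nat10-ZcKO GV, 1009 and 0 in WT MII, with 1011, 852 and 889 in Nat10-ZcKO MII. Its rise was smaller than that of Hnrnpa0, 0.65 ± 0.27 on the log2 scale (adjusted p = 0.0419, edgeR) over the 8 libraries, although the stages did not overlap. Under DESeq2 and under the additive fit it was not called, with adjusted p of 0.0643 and 0.0528. Hnrnpc, a core hnRNP that binds U tracts (chr14:52073377-52104028, - strand), had 165, 157 and 125 CPM in WT GV, 118, 38.7 and 123 in Nat10-ZcKO GV, 297 and 0 in WT MII, with 362, 143 and 282 in Nat10-ZcKO MII. Its stages overlapped through Nat10-ZcKO MII replicate 2, and the log2 fold change was 0.91 ± 0.36 (adjusted p = 0.033, edgeR) over the 8, on a gene with 62.5% of windows copied. Hnrnpc was not called with DESeq2 (adjusted p = 0.129).

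Hnrnpl and Hnrnpul2, next to Hnrnpa2b1 in counts, did not pass the test. Hnrnpl, which binds CA-rich RNA, had 564, 573 and 614 CPM in WT GV, 1959, 290.1 and 368 in Nat10-ZcKO GV, 586 and 208 in WT MII, with 681, 702 and 394 in Nat10-ZcKO MII. The value of 208 is a single count in the smallest library, and over the 8 libraries the log2 difference was 0.21 ± 0.28 (adjusted p = 0.529, edgeR). Hnrnpul2 had 378, 462 and 458 CPM in WT GV, 637, 1083 and 419 in Nat10-ZcKO GV, 438 and 0 in WT MII, with 734, 743 and 632 in Nat10-ZcKO MII, with a log2 difference of 0.26 ± 0.28 (adjusted p = 0.434). For both genes the stages overlapped.

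**Figure D4:**
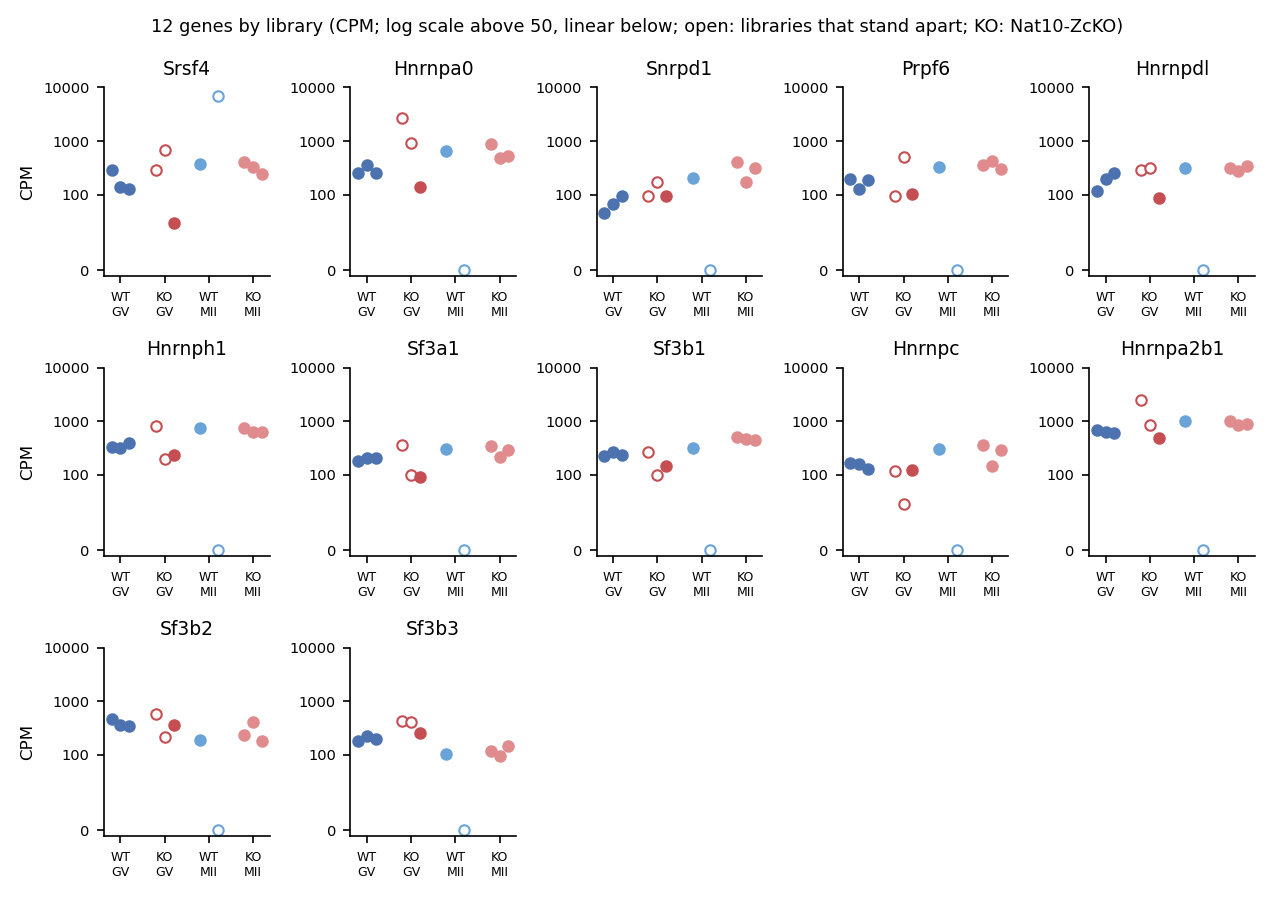
Footprint levels in CPM (axis logarithmic above 50 and linear below) of 12 members called between stages over the 8 libraries, in each of the 11 Ribo-seq libraries by stage and genotype, with open points for the 3 libraries that stand apart. Hnrnpa0 and Hnrnpa2b1 have their highest value in Nat10-ZcKO GV replicate 1, and without the open points their MII values lie above their GV values, while Sf3b3 lies lower at MII.

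Among the PRPF genes 2 of 5 tested (40%) rose over the 8 libraries and 0 fell, against 26.7% and 30.3% of all tested genes. Prpf6, a U5 protein that bridges to the U4/U6 snRNP (chr2:181591868-181655660, + strand), had 192, 125 and 187 CPM in WT GV, 94.4, 503 and 101 in Nat10-ZcKO GV, 326 and 0 in WT MII, with 351, 416 and 294 in Nat10-ZcKO MII. Its single high GV value was in Nat10-ZcKO GV replicate 2, and the log2 fold change over the 8 was 1.26 ± 0.33 (adjusted p = 0.00226, edgeR). Prpf8, the large scaffold of the catalytic core, had 213, 293 and 354 CPM in WT GV, 614, 541 and 227 in Nat10-ZcKO GV, 215 and 0 in WT MII, with 261, 232 and 200.4 in Nat10-ZcKO MII. Its stages overlapped and its log2 difference was -0.31 ± 0.32 (adjusted p = 0.399).

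Of the SF3A and SF3B subunits 2 of 7 tested were higher at MII over the 8 libraries and 2 lower. This is 28.6% each way, close to the 26.7% and 30.3% of all tested genes. Sf3b1, the subunit that clamps the branch site (chr1:54985169-55027481, - strand), had 227, 265 and 229 CPM in WT GV, 259.7, 96.7 and 144 in Nat10-ZcKO GV, 319 and 0 in WT MII, with 505, 470.3 and 451 in Nat10-ZcKO MII. Every MII library of the 8 was above every GV library, with a log2 fold change of 0.93 ± 0.31 (adjusted p = 0.0118, edgeR). Sf3a1 (chr11:4160350-4182541, + strand) had 179, 200.4 and 208 CPM in WT GV, 354, 96.7 and 90.2 in Nat10-ZcKO GV, 297 and 0 in WT MII, with 346, 211 and 288 in Nat10-ZcKO MII. It rose by 0.99 ± 0.34 on the log2 scale (adjusted p = 0.0134, edgeR), and its lowest MII library held 211 CPM against 208 in its highest GV library. With DESeq2 it was not called (adjusted p = 0.0641).

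Sf3b3, which binds Sf3b1 within the same complex (chr8:110810239-110846787, - strand), had 179, 225 and 198 CPM in WT GV, 425, 406 and 249 in Nat10-ZcKO GV, 104 and 0 in WT MII, with 117, 95.4 and 144 in Nat10-ZcKO MII. In each of the 4 deeper MII libraries it was below every GV library, and the 0 in the smallest library says nothing at its depth. Within Nat10-ZcKO with all libraries, the log2 difference was -1.72 ± 0.63 (unadjusted p = 0.0172, adjusted p = 0.0749, edgeR), and over the 8 it was -1.13 ± 0.37 (adjusted p = 0.0104). Sf3b2 (chr19:5273932-5295455, - strand) had 454, 354 and 343 CPM in WT GV, 567, 213 and 361 in Nat10-ZcKO GV, 185 and 0 in WT MII, with 234, 409 and 175 in Nat10-ZcKO MII. Its stages overlapped through Nat10-ZcKO MII replicate 2, and its log2 fold change over the 8 was -0.87 ± 0.33 (adjusted p = 0.0279, edgeR). Neither gene was called with DESeq2, or in the additive fit without Nat10-ZcKO GV replicate 3, where the stage term rests on WT alone.

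Where 26.7% of all tested genes rose and 30.3% fell over the 8 libraries, 1 of 5 tested Sm core members rose and 0 fell. This was Snrpd1, a ring subunit on chromosome 18, with 48.1, 68.0 and 93.6 CPM in WT GV, 94.4, 174 and 93.8 in Nat10-ZcKO GV, 200.2 and 0 in WT MII, with 409.6, 170.4 and 313 in Nat10-ZcKO MII. The stages did not overlap among the 8, and the log2 fold change was 1.48 ± 0.39 (adjusted p = 0.00208, edgeR), on a gene with 60.6% of windows copied. Snrpd3, the partner ring subunit with no copied window, had 247, 311 and 260.0 CPM in WT GV, 118, 96.7 and 332 in Nat10-ZcKO GV, 371 and 0 in WT MII, with 739, 286 and 877 in Nat10-ZcKO MII. It supplied most of the Sm core share, and its wide MII range overlapped GV, with a log2 difference of 0.57 ± 0.35 (adjusted p = 0.159). Snrpb had 20.6, 46.5 and 62.4 CPM in WT GV, 283, 116 and 50.5 in Nat10-ZcKO GV, 81.6 and 0 in WT MII, with 37.2, 68.2 and 18.8 in Nat10-ZcKO MII, with a log2 difference of 0.19 ± 0.59 (adjusted p = 0.804).

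Of the U1 and U2 proteins 2 were tested over the 8 libraries and 0 called, where 26.7% of all tested genes rose and 30.3% fell. Snrpa1, the U2 A′ protein, had 110.0, 93.0 and 104 CPM in WT GV, 47.2, 96.7 and 144 in Nat10-ZcKO GV, 51.9 and 0 in WT MII, with 95.8, 102 and 87.7 in Nat10-ZcKO MII. Snrpb2, the U2 B″ protein, had 48.1, 46.5 and 62.4 CPM in WT GV, 94.4, 0 and 14.4 in Nat10-ZcKO GV, 96.4 and 0 in WT MII, with 63.8, 40.9 and 56.4 in Nat10-ZcKO MII. These partners on the U2 snRNA had log2 differences of opposite sign, -0.91 ± 0.43 (adjusted p = 0.0722, edgeR) and 1.26 ± 0.59 (adjusted p = 0.0696), and neither passed the test. Snrpa, the U1 A protein, had 0 to 118 CPM and was too sparse to be tested.

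Among the SR proteins 1 of 7 tested (14.3%) rose over the 8 libraries and 0 fell, against 26.7% and 30.3% of all tested genes. Srsf4 (chr4:131873617-131901706, + strand) had 289, 136 and 125 CPM in WT GV, 283, 677 and 39.7 in Nat10-ZcKO GV, 371 and 6854 in WT MII, with 404, 327 and 238 in Nat10-ZcKO MII. The value of 6854 CPM comes from 33 counts in the smallest library. Over the 8 libraries the stages overlapped through WT GV replicate 1 and Nat10-ZcKO MII replicate 3, and the log2 fold change was 1.86 ± 0.39 (adjusted p = 0.00021, edgeR), with Nat10-ZcKO GV replicate 3 the lowest of all. In the additive fit the log2 difference was 1.08 without that library, where it rests on WT alone. It was 2.77 without WT MII replicate 1, where it rests on Nat10-ZcKO alone. Srsf2, an SR protein that stays in the nucleus, had 110.0, 96.6 and 114 CPM in WT GV, 567, 155 and 112 in Nat10-ZcKO GV, 222 and 0 in WT MII, with 207, 88.6 and 43.8 in Nat10-ZcKO MII. Srsf7, which shuttles to the cytoplasm, had 82.5, 60.8 and 41.6 CPM in WT GV, 212, 135 and 39.7 in Nat10-ZcKO GV, 29.7 and 0 in WT MII, with 90.4, 75.0 and 50.1 in Nat10-ZcKO MII. Both were highest in Nat10-ZcKO GV replicate 1, and their stages overlapped, with log2 differences of 0.40 ± 0.41 (adjusted p = 0.406, edgeR) and -0.25 ± 0.58 (adjusted p = 0.727) over the 8 libraries. Srsf9, a gene the study drew for Ribo-seq, had 61.9, 68.0 and 72.8 CPM in WT GV, 70.8, 19.3 and 57.7 in Nat10-ZcKO GV, 14.8 and 0 in WT MII, with 21.3, 40.9 and 62.6 in Nat10-ZcKO MII. At MII the 14.8 CPM of WT lay below all Nat10-ZcKO values, but also below the 22.2 CPM that a count of 0 allows in that library. The other WT MII value is the 0 of the smallest library, so genotypes at MII cannot be compared for Srsf9. WT MII replicate 1 was below all WT GV libraries, the Nat10-ZcKO groups overlapped, and the log2 difference between stages was -0.91 ± 0.81 (adjusted p = 0.397, edgeR) over all libraries and -1.42 ± 0.68 (adjusted p = 0.0731) over the 8. Hnrnpa0, Hnrnph1, Hnrnpdl and Hnrnpc were chosen for these paragraphs after their values were seen.

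The 78 other spliceosome genes moved in both directions between stages. With all 11 libraries 3 of 44 tested rose and 2 fell over both genotypes, where 7.53% of all tested genes rose and 13.7% fell. The kinase Clk1, which phosphorylates SR proteins, rose by 2.23 on the log2 scale, the exon junction protein Magoh by 2.60 and the U4/U6.U5 protein Snrnp27 by 2.20. The U5 GTPase Eftud2 fell by 2.28 and the SF3B subunit Phf5a fell by 2.26. Within Nat10-ZcKO 3 of 36 rose, Clk1, Magoh and Syf2, and 0 fell, against 9.98% and 6.56% of all genes. Over the 8 libraries 11 of 48 rose and 11 fell, with a median of -0.18, against 26.7% and 30.3% of all genes and a median of -0.14.

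In acRIP-seq the ratio of the 65 genes as a whole depended on the library total used. They held 7211 of 970997 IP counts and 815 of 116232 IgG counts, a summed ratio of 1.06 after division by the counts on genes, with an exact 95% interval of 0.985 to 1.14. The ratio was 1.18 with TMM factors and 1.65 when fragments on no feature, 17.1% of the IP and 46.7% of the IgG library, were counted in the totals. Ratios below are relative to counts on genes, so 1 is the ratio over all genes. With 1 library each there is no replicate, and the interval covers counting error between these 2 libraries only. By role, PRPF genes had the highest summed ratio, 1.36 (1.15 to 1.63), followed by hnRNPs with 1.10 (0.976 to 1.24). SF3A and SF3B had 0.981, SR proteins 0.876, the U1 and U2 proteins 0.784 and Sm core genes 0.735 (0.554 to 0.990). Of the 1663 IP and 146 IgG counts of the PRPF group, Prpf3 held 181 and 1 and Prpf8 319 and 3. The 9 PRPF members counted 50 times or more had a median of 1.24, against 1.27 for all genes so counted. For the 14 such hnRNPs it was 1.90. Of the 65 genes 64 had a count and 27 had a ratio above 2, 13 of them with no IgG count, while 53.3% of all genes with a count were above 2. Among genes with at least 50 counts it was 12 of 38 members and 32.8% of all genes, with median ratios of 1.33 and 1.27. The interval lay wholly above 2 for 2 members, Prpf3 and Prpf8, where 3.69% of all genes with a count passed.

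Prpf3, a U4/U6 snRNP protein, had 181 IP fragments and 1 IgG fragment, a ratio of 21.7 (3.84 to 860). Prpf8 had 319 and 3, a ratio of 12.7 (4.32 to 62.0). Hnrnpu, a nuclear scaffold protein, had 57 and 0 and Hnrnpa1 61 and 0, with lower bounds of 1.79 and 1.92. Among members with at least 50 counts the lowest ratios belonged to Prpf18, a factor of the second splicing step, with 0.270 (0.169 to 0.443, from 61 and 27 fragments), Snrpa1 with 0.314 (0.194 to 0.526, from 63 and 24) and Snrpd1 with 0.398 (0.269 to 0.602, from 113 and 34). Members of one role group thus stood at both ends of the range, with Prpf3 and Prpf18 both in the PRPF group. Intervals lay wholly above 1 for 14 and wholly below 1 for 11 of the 64 members with a count, where 16% and 15.6% of all genes with a count did so.

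**Figure D5:**
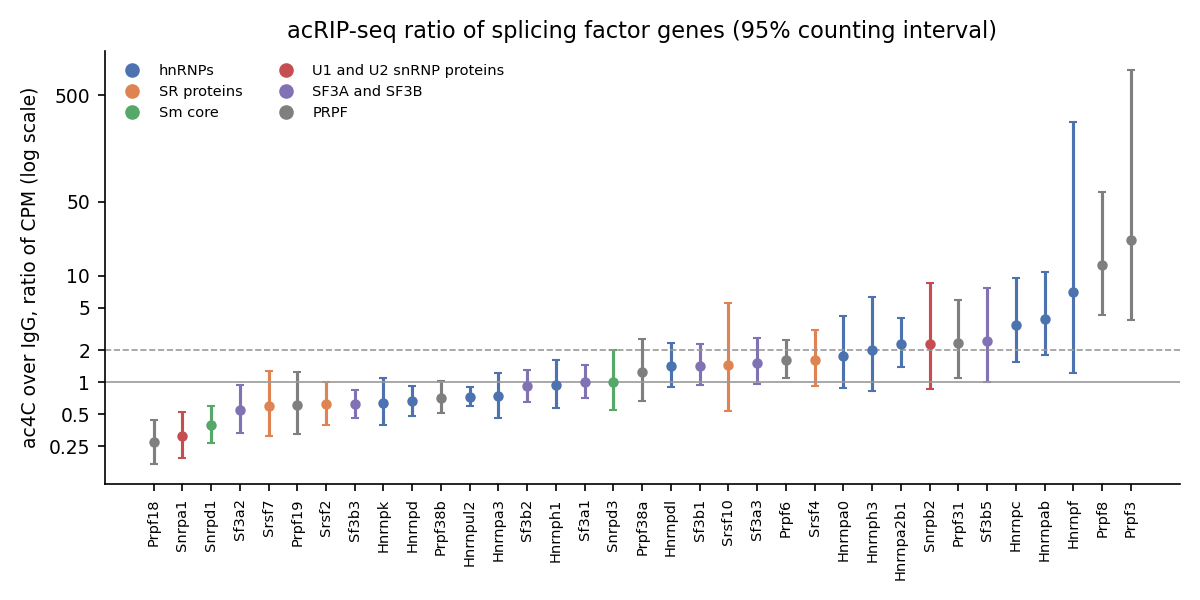
Ratio of IP to IgG counts after division by library depth (log axis) for members with at least 50 acRIP counts and at least 1 IgG count, 1 member left out, in order of the ratio and coloured by role, with exact 95% intervals for counting error between 1 library of each kind. Prpf3 and Prpf8 have lower bounds above the line at 2, and Prpf18, Snrpa1 and Snrpd1 have upper bounds below 1.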

How the data were processed

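Ribo-seq was made from 11 pools of GV or MII oocytes, and acRIP-seq from 2 pools of WT GV oocytes. The authors deposited raw counts per gene for each library, on the CDS for Ribo-seq and on protein-coding genes for acRIP-seq. The submitters' processing notes name cutadapt, STAR, HTSeq and mm10, and the study's methods mention uniquely mapped reads for RNA-seq, while the handling of reads with several positions in these assays is not given in the sources used here. Summary lines of the acRIP-seq files that name no gene were left out of library sizes, with 17.1% of IP and 46.7% of IgG fragments on no feature and 0.750% and 0.392% ambiguous.

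Groups came from the study's labels. Symbols were matched by Ensembl identifier without version to the GRCm38 annotation (22399 of 22442 genes matched). The members and gene lists were chosen with earlier results of these data known. Counts were tested with edgeR 4.0.16 in R 4.3.3 (filterByExpr, TMM scaling, glmQLFit with prior count 0.125, glmQLFTest, 2-sided), with Benjamini-Hochberg adjustment over all genes tested. Each SE was derived from the F statistic, as the size of the log2 fold change over the root of F. The separate comparisons within a stage or a genotype used their own libraries, the stage over both genotypes was fitted with genotype as an additive term, and the interaction and the fit over the 8 libraries used the 4 groups as separate means, stages averaged over genotypes. DESeq2 1.42.0, other scalings, other filters, a replicate block and fits without single libraries were alternatives. Scripts were tested on simulated data. CPM were computed from library totals and TPM from the union of annotated CDS. The acRIP-seq ratio is the IP share of counts divided by the IgG share, with exact 95% intervals. Copied windows were searched in Python 3.11.15 with numpy 2.4.6.

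Genes were named by rule. In each role group these were the 3 with the most CPM over the 8 libraries, and besides them members called in any of the 6 comparisons, members with an unadjusted p under 0.05 whose groups did not overlap, the 3 highest and 3 lowest acRIP-seq ratios among members with at least 50 counts and ratios with a lower bound above 2, Srsf9, the 3 most copied genes, and genes without a count. A gene the rule named is not reported here, although counts over the members include it. Names outside the rule were chosen after their values were seen. Depth was 4815 to 279464 counts per Ribo-seq library, 970997 for IP and 116232 for IgG. A count of 0 allows up to 3 counts, that is 10.7 to 623 CPM.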

Additional observations from a re-analysis of the deposited data

How the results depend on the processing

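With all 11 libraries 0 members were called in each comparison. With library size alone, 1 of 31 tested members was called between genotypes at MII, 3 of 28 between stages in WT and 2 of 40 over both genotypes. Among all tested genes these fits called 2 higher and 42 lower of 2097, then 343 and 654 of 2045. Over both genotypes 542 and 850 of 3863 genes were called. Over both genotypes, DESeq2 called 6 of 63 members, DESeq2 size factors in edgeR 4 of 40 and a minimum of 10 counts 1 of 57. All tested genes gave 392 higher and 1594 lower of 13685, 335 and 1331 of 3863, and 282 and 430 of 8678. Without the 3 libraries that stand apart 4 were called in WT, 9 in Nat10-ZcKO and 13 over both. With single libraries left out, the counts ranged from 0 to 3 (genotype at GV), 0 to 24 (genotype at MII), 0 to 24 (stage in WT), 0 to 2 (stage in Nat10-ZcKO), 0 to 5 (stage over both) and 0 to 19 (interaction). The values of 24 and 19 arose without WT MII replicate 1, which leaves the library of 4815 counts as the whole group, and the 5 without WT MII replicate 2. Without WT MII replicate 1 the median log2 difference of all tested genes was 6.52 between genotypes at MII and -6.85 between stages in WT. Those of the members were 7.37 and -7.54. Other fits of the 8 libraries, chosen after seeing the data, called 13 (library size alone), 14 (DESeq2 size factors), 8 (DESeq2) and 12 (additive terms), with calls over all genes given above. The additive fit called 4 to 15 with single libraries left out, and 4 without Nat10-ZcKO GV replicate 3. Without Nat10-ZcKO GV replicate 3 the additive stage term rests on WT alone, and without WT MII replicate 1 on Nat10-ZcKO alone. No log2 difference of the 13 members changed sign among these fits.

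Hnrnpa0, at -0.13 with all libraries, changed sign to 0.032 without a filter, 0.049 with a minimum of 10 counts and 1.51 without the 3 libraries. Hnrnpa2b1, at -0.12, became 0.011, 0.044 and 0.65 under the same changes, and Hnrnpdl became -0.0080 with DESeq2 size factors. With single libraries left out of the 11, Hnrnpa0 ranged from -1.01 to 0.50 and Hnrnpa2b1 from -0.69 to 0.54, with the highest values without WT MII replicate 2. The cause was not tested.

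The summed share was 0.724% in WT GV and 1.15% in Nat10-ZcKO MII from TPM, and 0.629% in WT GV without the most counted gene. With single libraries left out it was 0.689% to 0.697% in WT GV, 0.816% to 1.49% in Nat10-ZcKO GV, 0.706% to 0.942% in WT MII and 0.905% to 1.03% in Nat10-ZcKO MII. Members with an acRIP-seq ratio above 2 numbered 12 with at least 50 counts and 2 by the lower bound, and the summed ratio was 1.65 with fragments on no feature in the totals and 1.18 with TMM.

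Replicate numbers were shared between groups, and the deviations of same-numbered libraries from their group means correlated at -0.0310 to 0.149. These values show no pairing by number. They cannot exclude it, since counts were sparse and the 3 libraries that stand apart were included. With a replicate block 0 members were called in each of the 6 comparisons. Depth limits what could be seen, since 41 of the 65 genes passed the filter on low counts in the 8 libraries.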
